A study of Mus musculus with 8 samples.

Results

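The subject is the baseline transcriptome of N134 cells, a mouse pancreatic beta cell tumor line of C57BL/6 strain that the submitters also call a pancreatic neuroendocrine tumor line. Of the 8 RNA sequencing libraries of the series, 4 came from N134 cells that overexpress a control construct, GFP-miR-LacZ, and these 4 libraries, numbered 1 to 4, are the only ones used. They were chosen by their labels and by no measured value. The cells were growing actively when RNA was taken, in medium with serum, and every library carries the GFP and LacZ construct, so no library shows the line without it. No label tells if separate cultures gave the 4 libraries, and the spread between them may be technical. The deposited table gives FPKM, which by its definition is fragments per kilobase of transcript relative to a library total, for 23309 genes. Which total the authors scaled to is not given in the sources used here.

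Beta cells of the pancreatic islet make insulin, process it in dense-core granules with granins and prohormone convertases, and release it when glucose metabolism closes potassium channels and lets calcium enter. Their identity rests on a set of transcription factors, among them Pdx1, Mafa, Nkx6-1, Pax6 and Neurod1, and mice carry 2 insulin genes, Ins1 and Ins2. Tumors of these cells often keep the hormone program while they divide.

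The label was checked against 5 beta cell and endocrine markers. Ins2 (chromosome 7, 149864560 to 149865613, mm9) was at 15445, 21738, 24017 and 26753 FPKM in libraries 1 to 4, and Ins1 (chromosome 19, 52338812 to 52339948) at 2063, 2647, 3326 and 5291 FPKM. Ins2 was the most abundant gene in each of the 4 libraries, and Ins1 had the seventh highest mean among named genes. Chga, which encodes the granule protein chromogranin A (chromosome 12, 103793178 to 103803237), was at 2288, 3358, 3291 and 3412 FPKM. Chgb, for chromogranin B (chromosome 2, 132607013 to 132620808), was at 377, 657, 559 and 839 FPKM. Pdx1, a homeodomain factor that binds the insulin promoters (chromosome 5, 148040173 to 148086725), was at 237, 285, 243 and 343 FPKM. All 5 markers were thus high in every library, and for all 5 except Pdx1 library 1 was clearly the lowest, while for Pdx1 libraries 1 and 3 lay close together below the other 2. Ins1 and Ins2 are near copies, so reads could have been split between them in the authors' estimate. Ins1 made up 11.8, 10.9, 12.2 and 16.5% of the sum of the 2 genes in libraries 1 to 4.

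Promoter sequences show what these genes carry near their start sites. The sequences below are from RefSeq on GRCm38.p6, which is another build than that of the table. Each runs 5′ to 3′ over 300 bases, from 250 bases before the annotated start to 50 bases after it. The Ins1 and Iapp promoters are shown because these hormone genes are among the most abundant in the table. Iapp encodes islet amyloid polypeptide, which is secreted with insulin. Capitals mark TAAT, the core that homeodomain factors such as Pdx1 and Nkx6-1 read, and CANNTG, the E-box that factors such as Neurod1 read, each on both strands. Neighbouring or overlapping matches run together.
Ins1, chr19:52264047-52264346, plus strand: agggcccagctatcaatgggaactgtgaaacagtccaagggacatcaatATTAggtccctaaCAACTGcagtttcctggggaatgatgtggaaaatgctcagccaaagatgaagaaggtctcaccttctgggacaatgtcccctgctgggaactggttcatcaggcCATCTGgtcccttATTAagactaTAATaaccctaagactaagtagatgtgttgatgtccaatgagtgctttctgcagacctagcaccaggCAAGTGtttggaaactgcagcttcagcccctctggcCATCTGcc
Iapp, chr6:142298175-142298474, plus strand: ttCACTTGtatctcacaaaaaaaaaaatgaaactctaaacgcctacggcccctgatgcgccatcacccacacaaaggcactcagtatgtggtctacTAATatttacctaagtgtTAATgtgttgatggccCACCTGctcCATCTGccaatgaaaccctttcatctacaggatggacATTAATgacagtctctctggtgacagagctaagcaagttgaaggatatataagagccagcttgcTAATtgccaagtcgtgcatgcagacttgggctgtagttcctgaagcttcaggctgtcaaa
The Ins1 window held 3 TAAT and 4 CANNTG matches, and the Iapp window 5 TAAT and 3 CANNTG matches. Such short motifs are common, since 58.0% of 32851 RefSeq promoter windows of this length held TAAT and 72.3% held CANNTG. The third window is that of Txnip, a gene whose level differed among the 4 libraries more than almost any other. Capitals mark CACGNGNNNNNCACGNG, the spaced pair of E-box forms known as a carbohydrate response element, searched on both strands.
Txnip, chr3:96557707-96558006, plus strand: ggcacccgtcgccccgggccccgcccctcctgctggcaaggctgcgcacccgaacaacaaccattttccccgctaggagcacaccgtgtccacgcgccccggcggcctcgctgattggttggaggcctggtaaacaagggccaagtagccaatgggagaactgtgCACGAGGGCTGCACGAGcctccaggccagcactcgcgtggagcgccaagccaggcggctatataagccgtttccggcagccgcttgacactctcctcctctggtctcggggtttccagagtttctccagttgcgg
The Txnip window held this form 1 time, and 16 of the 32851 windows did, or 0.0487%. Of the 12 glucose-responsive genes described further on, 9 had a RefSeq window, and Txnip alone among them held the form. A match describes the letters and does not show binding.

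The 4 libraries as deposited were similar in scale. Their FPKM had already been scaled by the authors in a way not given, so this likeness may come from the scaling, which was not tested. Their summed FPKM lay between 541979 and 612976, the 75th percentile between 14.5 and 14.6 FPKM, and the number of genes at 1 FPKM or more between 11603 and 11748. Across genes, Pearson's r of log2(FPKM + 1) lay between 0.984 and 0.990 over the 6 pairs of libraries, a description of genes that are not independent. The 3 pairs with library 4 gave the 3 lowest values, 0.984, 0.985 and 0.986. Sequencing depth is not given in the sources used here. In libraries 2, 3 and 4 the low values of long single-transcript genes fell on regular steps, with 78.8%, 79.5% and 80.2% of them within 0.1 of a whole multiple. Steps were computed on transcript length less an assumed fragment length of 200 bases. If that step is 1 fragment, 1 fragment in 2 kb of this shortened length equals 0.0120, 0.0132 and 0.0129 FPKM in libraries 2, 3 and 4. A level of 0.1 FPKM then rests on about 8.36, 7.60 and 7.72 fragments. In library 1 the steps were blurred, with 35.9% of the values near a multiple, so no such step is given for it.

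Among the genes in the table, secreted peptides led. None of 9 mitochondrially encoded genes looked up by name was in the table. The ranks and shares of summed FPKM therefore cover only the genes it lists. Among the 20 most abundant genes with a proper gene name, 7 encode hormones, peptides or granule cargo: Ins2, Iapp, Sct, Npy, Ins1, Chga and Scg2. Another 5 encode ribosomal proteins, Rpl41, Rps21, Rpl10 and Rpl23a among them. Ins2 alone held 3.84% ± 0.836 of the summed FPKM (mean ± SD, n = 4), between 2.85% in library 1 and 4.88% in library 4. The 20 most abundant entries together held 15.4% ± 1.18, and 453 entries held 50% of the mean total. Only 51 entries reached a mean of 1000 FPKM and 958 reached 100 FPKM. Between Npy and Ins1 by mean stood Nnat at 5691 ± 1289 FPKM (mean ± SD, n = 4 here and below), an imprinted gene for a small protein of the endoplasmic reticulum. Gnas, the imprinted locus of the stimulatory G protein alpha subunit, was at 5535 ± 738 FPKM. Slc38a5, a transporter of glutamine and other neutral amino acids, was at 2429 ± 259 FPKM and Ftl1, the ferritin light chain, at 2384 ± 728 FPKM. For Ftl1 library 4 stood below the others, with 2646, 2483, 3055 and 1352 FPKM in libraries 1 to 4.

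**Figure D1:**
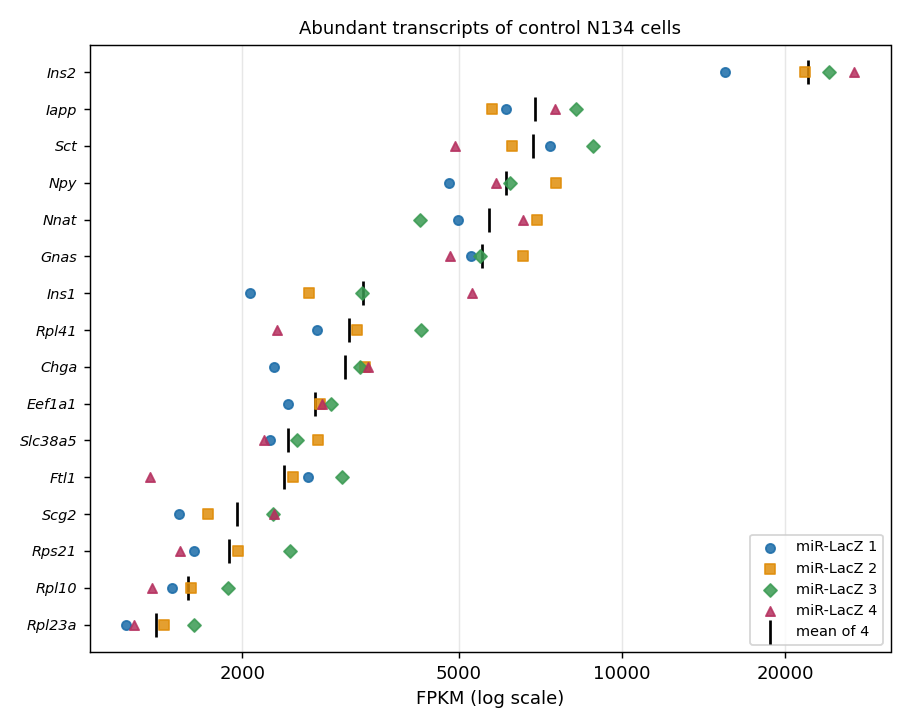
FPKM of 16 of the 20 most abundant named genes (rows), those named in the text, on a log axis, 1 symbol per miR-LacZ library and a bar at the mean of 4. Ins2 lies apart from the rest at 15445 to 26753 FPKM, and library 3 holds the highest value for each of the ribosomal protein genes Rpl41, Rps21, Rpl10 and Rpl23a.

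Among 46 hormone and peptide genes, 14 reached a mean of 10 FPKM, 8 lay between 1 and 10, 10 between 0.1 and 1, and 14 were under 0.1 FPKM, against 31.0%, 19.3%, 10.8% and 38.8% of all genes in the table. Next to the insulins and Iapp, the highest were not islet hormones of the adult. Sct, for secretin, a gut hormone that drives bicarbonate secretion, was at 7378, 6279, 8844 and 4919 FPKM in libraries 1 to 4. Npy, for neuropeptide Y, a neuronal peptide also made in developing islets, was at 4802, 7563, 6214 and 5849.7 FPKM. Sct exceeded Ins1 in libraries 1, 2 and 3, and Npy exceeded it in all 4. Cck, for the gut and brain peptide cholecystokinin, followed at 445 ± 51.3 FPKM and Igf2, an imprinted growth factor, at 381 ± 30.5 FPKM.

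Hormones of the other islet and gut endocrine cells were present at lower levels. Gcg, for proglucagon, the product of alpha cells, was at 45.3, 115, 149 and 121 FPKM in libraries 1 to 4, with library 1 below the other 3. Gip, for the incretin of intestinal K cells, was at 70.1, 75.9, 76.9 and 26.7 FPKM, with library 4 below the other 3. Gast, for gastrin, averaged 17.2 ± 2.11 FPKM. Ppy, for pancreatic polypeptide, was at 9.13, 4.74, 7.48 and 0.814 FPKM and Sst, for somatostatin of delta cells, at 0.588, 1.45, 1.71 and 1.41 FPKM. Pyy and Ghrl, for peptide YY and ghrelin, averaged 0.340 and 0.168 FPKM. In bulk RNA a low mean cannot be split into few cells with much transcript or many cells with little. Ucn3, for urocortin, a marker of mature mouse beta cells, was low at 2.82, 2.70, 1.13 and 0.263 FPKM, and library 4 held the lowest value. Vip, Crh, Edn1 and Avp were listed at 0 in all 4 libraries, and Igf1, Gh, Prl and Trh were under 0.1 FPKM.

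The granule machinery was nearly complete. Of 22 granin and granule cargo genes, 19 reached 10 FPKM and none was under 0.1, against 31.0% and 38.8% of all genes. The median of their means was 234 FPKM. Scg2, for secretogranin, was at 1954 ± 386 FPKM, Cpe, the carboxypeptidase that trims prohormones, at 1280.0 ± 117 FPKM, and Pcsk2, a prohormone convertase, at 919.6 ± 63.4 FPKM. The other insulin convertase, Pcsk1, was lower at 50.6, 71.6, 71.04 and 83.4 FPKM. Slc30a8, the zinc transporter of the insulin granule, was at 222, 226, 232 and 285 FPKM and Ptprn, a granule membrane protein and islet autoantigen, at 247, 284, 252 and 299 FPKM. Rbp4, which carries retinol, was at 509, 628, 799 and 770.1 FPKM, with library 1 the lowest. Of the monoamine transporters, Slc18a1 averaged 5.10 ± 0.437 FPKM and Slc18a2 0.729 ± 0.224 FPKM.

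Of 26 exocytosis genes, 19 reached 10 FPKM, against 31.0% of all genes, 6 lay between 1 and 10 and 1 was lower. Sytl4, for the granuphilin of insulin granules, was at 167, 225, 229.9 and 346 FPKM, and library 4 was the highest. Syt13 at 233 ± 20.2 FPKM led the synaptotagmins, followed by Syt7, a calcium sensor of insulin release, at 72.3 ± 11.9 FPKM. The SNARE genes Snap25, Vamp2 and Stx1a averaged 54.99, 54.5 and 12.999 FPKM.

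Of 40 islet transcription factors, 19 reached 10 FPKM, 8 lay between 1 and 10, 2 between 0.1 and 1, and 11 were under 0.1 FPKM. Over all genes in the table the shares were 31.0%, 19.3%, 10.8% and 38.8%. Pdx1 was the highest. Insm1, a zinc finger factor of endocrine cells, was at 232, 204, 216 and 236 FPKM, and Pax6, a paired-box factor of all islet cells, at 158, 188, 159 and 159 FPKM. Mafa, which activates insulin transcription in mature beta cells, was at 109, 171, 115 and 232 FPKM, with libraries 2 and 4 above libraries 1 and 3. Isl1, a LIM homeodomain factor, was at 140.2, 158, 109 and 198 FPKM and showed the same split of libraries 2 and 4 above 1 and 3.

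Further factors of the beta cell set also averaged over 10 FPKM. Neurod1 averaged 116 ± 9.98 FPKM, Nkx6-1 94.2 ± 11.4 FPKM, Nkx2-2 67.6 ± 1.75 FPKM and Rfx6 47.999 ± 6.66 FPKM. Foxa2, a forkhead factor of endoderm, was nearly level, with 61.3, 61.2, 60.3 and 62.97 FPKM in libraries 1 to 4. Mlxipl, the carbohydrate-response factor ChREBP, averaged 166 ± 22.8 FPKM. Nkx6-2, a close relative of Nkx6-1 better known in brain, was higher than Nkx6-1 at 134.1 ± 23.8 FPKM. Mnx1, a homeodomain factor needed for beta cell fate, averaged 16.4 ± 5.33 FPKM.

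Several factors of the other pancreatic lineages were close to 0. Neurog3, the trigger of endocrine progenitors, averaged 0.00534 FPKM. Sox9 of duct and progenitor cells and Ptf1a of acinar cells were listed at 0 in all 4 libraries. Hhex, a delta cell factor, averaged 0.0773 FPKM. An exception was Irx1, known from alpha cells, at 19.6, 19.7, 23.7 and 14.2 FPKM, together with Irx2 at 6.34 ± 1.55 FPKM. Pax4, a progenitor factor, averaged 7.57 ± 2.28 FPKM.

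Families of transcription factors differed in how many members were low. All 39 Hox genes were under 0.1 FPKM, against 38.8% of all genes, the highest being Hoxb7 at 0.0606 FPKM. Of 13 Nkx genes 3 were at 1 FPKM or more, of 9 Pax genes 2, of 15 Tbx genes 1 and of 6 Gata genes 1, which was Gata4 at 8.01 FPKM. In other families most members were at 1 FPKM or more, with all 8 E2f genes, which act in S phase entry, 7 of 8 Smad genes, 12 of 16 Stat and Irf genes, 22 of 30 Jun, Fos and Atf genes and 17 of 26 Klf and Sp genes. ETS genes lay between, with 12 of 24, near the share of all genes. Outside the islet set the highest were Atf4 at 273 ± 57.6 FPKM and Atf5 at 204 ± 39.6 FPKM, both of the stress response, and the inhibitors Id2 and Id3 at 124 ± 34.8 and 114 ± 29.8 FPKM. Tcf19, an islet-enriched factor, was at 104 ± 8.41 FPKM and Etv1, an ETS factor, at 71.6 ± 14.3 FPKM.

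**Figure D2:**
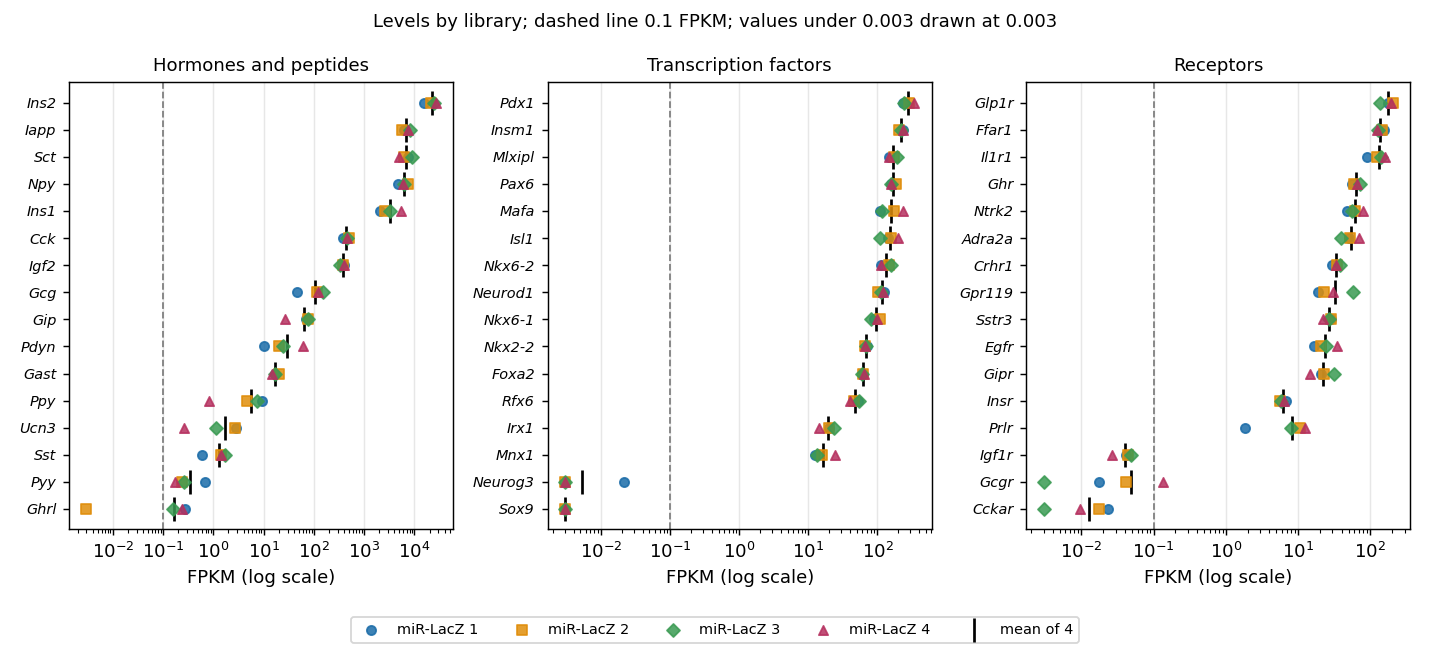
FPKM in each of the 4 miR-LacZ libraries (log axis) for 16 hormones, 16 transcription factors and 16 receptors, with a bar at the mean and a dashed line at 0.1 FPKM. Insulins and beta cell factors lie far above the line in every library, while Neurog3 and Sox9 and the receptors Igf1r and Cckar lie below it in all 4.

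Receptors that tune insulin release were led by 2 drug targets of the beta cell. Glp1r, the receptor of the incretin GLP-1, was at 176, 207, 136 and 194 FPKM in libraries 1 to 4 and Ffar1, the long-chain fatty acid receptor, at 153, 147, 127 and 124 FPKM. Of 41 such receptors in the table, 13 reached 10 FPKM and 10 were under 0.1 FPKM, against 31.0% and 38.8% of all genes. The first count was thus near the share of all genes. Gipr, the other incretin receptor, averaged 22.2 ± 6.84 FPKM. Gpr119, a lipid receptor that raises cAMP, was at 18.8, 23.02, 58.1 and 30.1 FPKM, with library 3 above the others. Adra2a, the adrenergic receptor that inhibits insulin release, averaged 53.6 ± 12.8 FPKM, Crhr1 33.9 ± 3.33 FPKM, Galr1 24.5 ± 1.47 FPKM, Sstr3 26.6 ± 3.15 FPKM and Sstr5 26.1 ± 4.55 FPKM. Gcgr, the glucagon receptor, was at 0.0175, 0.0416, 0 and 0.135 FPKM, and Cckar and Ghsr were also under 0.1 FPKM on average. Ghr, the growth hormone receptor, averaged 63.4 ± 7.27 FPKM. Prlr, the prolactin receptor of pregnancy-adapted islets, was at 1.87, 10.5, 8.06 and 12.4 FPKM, with library 1 below the other 3.

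Among 44 growth factor receptors, 10 reached 10 FPKM and 14 were under 0.1 FPKM, against 31.0% and 38.8% of all genes. Ntrk2, a neurotrophin receptor, averaged 60.6 ± 13.3 FPKM, Ddr1, a collagen receptor, 39.98 ± 6.53 FPKM and Igf2r, which clears Igf2, 35.3 ± 7.82 FPKM. Egfr was at 16.5, 20.5, 24.3 and 34.5 FPKM, highest in library 4. Insr, the insulin receptor, averaged 6.17 ± 0.499 FPKM, whereas Igf1r averaged 0.0405 FPKM. Insrr, the third member of that receptor family, was higher than both at 23.7 ± 3.25 FPKM. Erbb2 averaged 0.0417 FPKM, against 1.78 FPKM for Erbb3, and Kdr, Flt1, Pdgfrb and Csf1r were under 0.1 FPKM.

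Of 35 cytokine receptors, 13 reached 10 FPKM, against 31.0% of all genes. Il1r1, through which interleukin-1 acts on beta cells, stood first at 91.5, 126, 143 and 161 FPKM, and library 1 was the lowest. Acvr1c, an activin receptor of beta cells, averaged 50.2 ± 14.4 FPKM. Tgfbr1 averaged 26.7 ± 4.93 FPKM while its partner Tgfbr2 averaged 0.00143 FPKM. The leptin receptor Lepr and the death receptor Fas were under 0.1 FPKM. Of 49 nuclear receptors, 11 reached 10 FPKM, against 31.0% of all genes. The clock repressor Nr1d2 was at 32.9, 24.6, 44.1 and 22.1 FPKM and Vdr, for vitamin D, at 13.6, 17.1, 17.6 and 24.9 FPKM. Pgr, for progesterone, was under 0.1 FPKM. Of 48 ligand-gated channels of neurons, 10 reached 10 FPKM and 19 were under 0.1, against 31.0% and 38.8% of all genes. The second count was thus near the share of all genes. Grin1, the obligate NMDA receptor subunit, averaged 45.98 ± 3.996 FPKM. The other NMDA subunits Grin2a and Grin2b were under 0.1 FPKM and Grin2c and Grin2d averaged 0.703 and 0.409 FPKM. The nicotinic pair Chrna3 and Chrnb4, which assemble together, averaged 27.7 ± 9.34 and 26.98 ± 6.80 FPKM.

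Glucose handling had the beta cell pattern in part. The low-Km hexokinases Hk1, Hk2 and Hk3 averaged 0.0933, 0.00820 and 0.0572 FPKM. G6pc2, the islet glucose-6-phosphatase, was at 838, 771, 742 and 609 FPKM. The potassium channel subunits Abcc8 and Kcnj11 averaged 151 ± 6.82 and 66.7 ± 7.82 FPKM. Slc2a2, the main glucose transporter of rodent beta cells, was at only 4.70, 4.58, 2.42 and 13.96 FPKM, and library 4 was the highest. Slc2a1, the transporter of most other cells, was at 6.41, 8.78, 7.09 and 3.75 FPKM, and library 4 was the lowest. In libraries 1, 2 and 3 Slc2a1 exceeded Slc2a2, and in library 4 the order was turned.

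Of 22 genes that mature beta cells usually keep silent, none reached 10 FPKM on average, 11 lay between 1 and 10 and 6 were under 0.1 FPKM. Over all genes the shares were 31.0%, 19.3% and 38.8%. Ldha, lactate dehydrogenase, was at 1.08, 6.26, 3.01 and 0.254 FPKM, with library 2 the highest and library 4 the lowest. Slc16a1, the monocarboxylate transporter, averaged 4.74 ± 0.626 FPKM. Rest, the repressor of neuronal genes, averaged 0.216 FPKM. Zdhhc9, a palmitoyltransferase, led the list at 8.81 ± 1.78 FPKM.

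The cells carried the transcripts of dividing cells. Of 36 cell cycle genes, 31 reached 10 FPKM and 13 reached 100 FPKM, against 31.0% and 4.11% of all genes. Pcna, the sliding clamp of replication, was at 479, 505, 558 and 498 FPKM, and Top2a and Mki67, proliferation markers, at 178, 207, 150.2 and 261 and 55.5, 70.1, 47.7 and 108 FPKM. For Top2a and Mki67 library 4 was the highest and library 3 the lowest. Of the kinases that pass G1, Cdk4 was at 316, 359.5, 355 and 211 FPKM, with library 4 the lowest, and Cdk6 averaged 0.0285 FPKM. Of their D-type cyclins 2 were low, with Ccnd1 at 0.288 FPKM and Ccnd2, the main one of adult mouse islets, at 0.0361 FPKM, while Ccnd3 was at 9.87 ± 1.08 FPKM. Cdkn2a, a locus whose products inhibit Cdk4 and Mdm2, was at 255, 313, 301 and 230.2 FPKM, and Cdkn2c, another Cdk4 inhibitor, at 241, 227, 186 and 238 FPKM.

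Genes mutated in human pancreatic neuroendocrine tumors were well above the 1 FPKM level. Men1, Daxx and Atrx averaged 40.5 ± 1.45, 14.4 ± 0.851 and 35.2 ± 7.06 FPKM. Trp53 and Rb1 averaged 67.2 ± 7.61 and 57.2 ± 15.1 FPKM, and for Rb1 library 4 was the highest with 49.2, 46.6, 53.6 and 79.5 FPKM in libraries 1 to 4. Dab2ip, the RasGAP named in the title of the series, was at 79.1, 79.1, 72.2 and 62.7 FPKM. Of the Ras genes Hras1 averaged 33.8 ± 4.80 FPKM and Nras 14.9 ± 2.28 FPKM. Tert, the catalytic subunit of telomerase, was at 2.98, 2.52, 3.62 and 3.22 FPKM, and Myc averaged 9.64 ± 1.09 FPKM.

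Markers of the other cells of a pancreas or tumor were at or near 0. Of 22 acinar markers 19 were under 0.1 FPKM, and of these 11 were listed at 0 in all 4 libraries. Over all genes in the table the shares were 38.8% and 21.9%. The acinar list summed to 7.96 to 15.9 FPKM per library, most of it from Bhlha15 at 7.14 ± 2.37 FPKM, which endocrine cells can also express. Of 14 leukocyte markers measured, 11 were under 0.1 FPKM, Ptprc at 0.0119 FPKM among them, and the list summed to 0.989 to 1.47 FPKM. Of 12 endothelial markers 10 were under 0.1 FPKM, Pecam1 and Cdh5 included, and Esam alone reached 1 FPKM, at 4.70 ± 0.897 FPKM. Of 14 fibroblast markers 8 were under 0.1 FPKM, among them Dcn and Col3a1, and the list summed to 3.14 to 4.77 FPKM. Of 17 red cell and muscle markers 16 were under 0.1 FPKM, and all 17 were under 1 FPKM.

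Epithelial and neuronal genes broke this pattern. The duct keratins Krt8 and Krt7 were at 102, 145, 149 and 208 FPKM and 78.2, 104, 132 and 115 FPKM, while Krt19 and Cftr averaged 0.0106 and 0.0531 FPKM. Krt18, the usual partner of Krt8, averaged 5.45 ± 0.849 FPKM. The cadherins were weighted to Cdh2 at 47.04 ± 11.2 FPKM over Cdh1 at 7.01 ± 0.504 FPKM, and Epcam averaged 1.48 ± 0.613 FPKM and Vim 0.962 ± 0.507 FPKM. Of 32 neuronal markers, many of which endocrine cells share, 16 reached 10 FPKM, against 31.0% of all genes. Uchl1, a neuronal ubiquitin hydrolase, averaged 303 ± 26.98 FPKM and Ddc, which makes dopamine and serotonin from their precursors, 269 ± 6.98 FPKM. Th, the first enzyme of dopamine synthesis, was at 45.2, 47.6, 34.7 and 29.97 FPKM, and Dbh, which turns dopamine into noradrenaline, was under 0.1 FPKM.

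Plasma protein genes were split in the same way. Ttr, for transthyretin, a carrier that islets and liver both make, was at 506, 648, 726 and 443 FPKM. Asgr2, a subunit of the hepatocyte asialoglycoprotein receptor, was at 155, 222, 108 and 88.96 FPKM, while its partner Asgr1 averaged 0.276 FPKM. Alb averaged 4.37 ± 3.22 FPKM, and Apob, Fga and Cyp2e1 were under 0.1 FPKM. The Serpina1 genes are near copies of each other, so the level of each is uncertain, and the highest listed was Serpina1b at 85.2 ± 19.1 FPKM.

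In all, 9043 of 23309 genes, or 38.8%, had a mean under 0.1 FPKM, and 5103 were listed at 0 in all 4 libraries. Of 1097 olfactory receptors 1088 were under 0.1 FPKM. The Y-linked genes Ddx3y, Eif2s3y, Kdm5d, Uty, Usp9y, Zfy1, Zfy2 and Sry were each listed at 0 in all 4 libraries. Xist, the RNA of the inactive X chromosome, was at 78.7, 73.8, 107 and 156 FPKM, highest in library 4. Its antisense partner Tsix averaged 0.128 FPKM, and strand use in the counting is not stated. A listed 0 is not always silence. All 61 genes that the table places on unplaced chromosome pieces were at 0 in every library, including Hmgcs1, a sterol synthesis enzyme whose pathway partners were high, and Vamp7. Why these 61 entries were at 0 was not tested, and they are not read as silent.

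**Figure D3:**
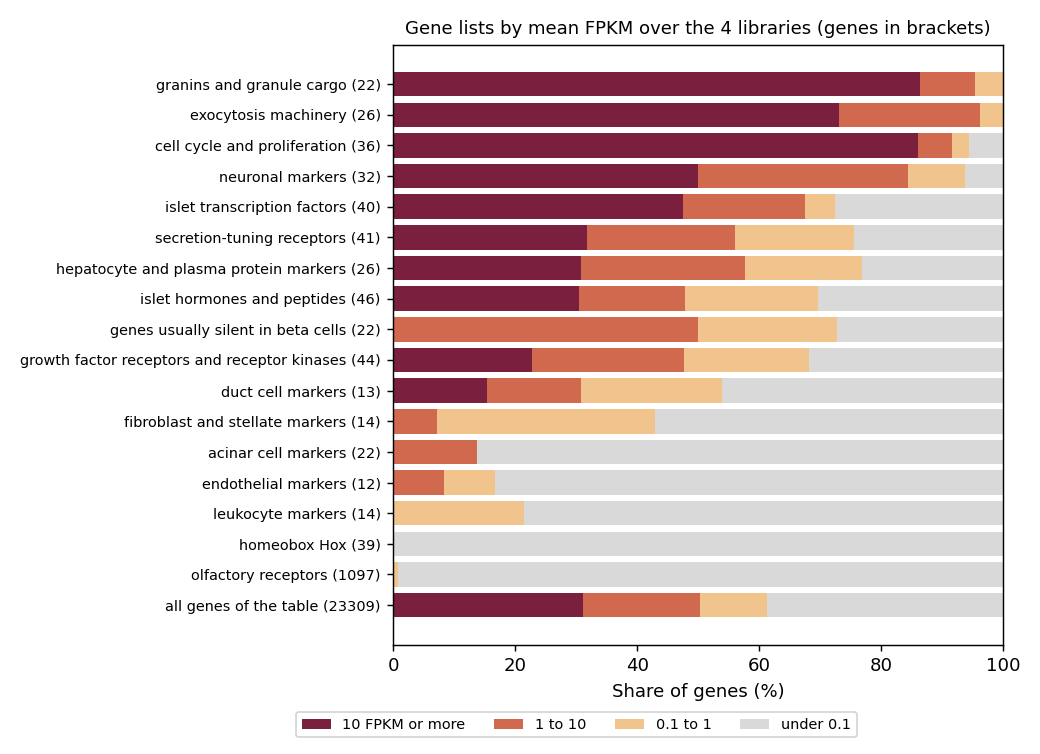
Share of genes (x axis, %) in 4 classes of mean FPKM over the 4 miR-LacZ libraries, for 17 gene lists and for all 23309 genes. Granule and exocytosis genes fill the class of 10 FPKM or more, with 19 of 22 and 19 of 26 members, and all 39 Hox genes are under 0.1 FPKM.

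Agreement among the 4 libraries was measured by the coefficient of variation (CV, the SD over the mean), which cannot exceed 2 with 4 values. Over the 9258 genes at a mean of 5 FPKM or more, the median CV was 0.123, and 3245 genes were under 0.1. Spread shrank with level, with a median of 0.342 at means of 0.1 to 1 FPKM and 0.117 at 10 to 100 FPKM, but it was 0.176 for the 46 named genes at 1000 FPKM or more. Among the 5 steadiest genes were Rnf181, Prkar1b, Mef2d and Ap3s2. Rnf181, a ubiquitin ligase, was at 54.4, 54.5, 54.7 and 54.5 FPKM and Prkar1b, a regulatory subunit of protein kinase A, at 58.5, 57.6, 57.9 and 57.7 FPKM. Of 19 genes often used as references, Eef1a1 had a CV of 0.0771, Gapdh 0.0967, Actb 0.125 and Rpl13a 0.305. Among hormones Ins1 varied most of the 5 highest, with a CV of 0.422, and among the 5 markers Pdx1 had 0.177.

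**Figure D4:**
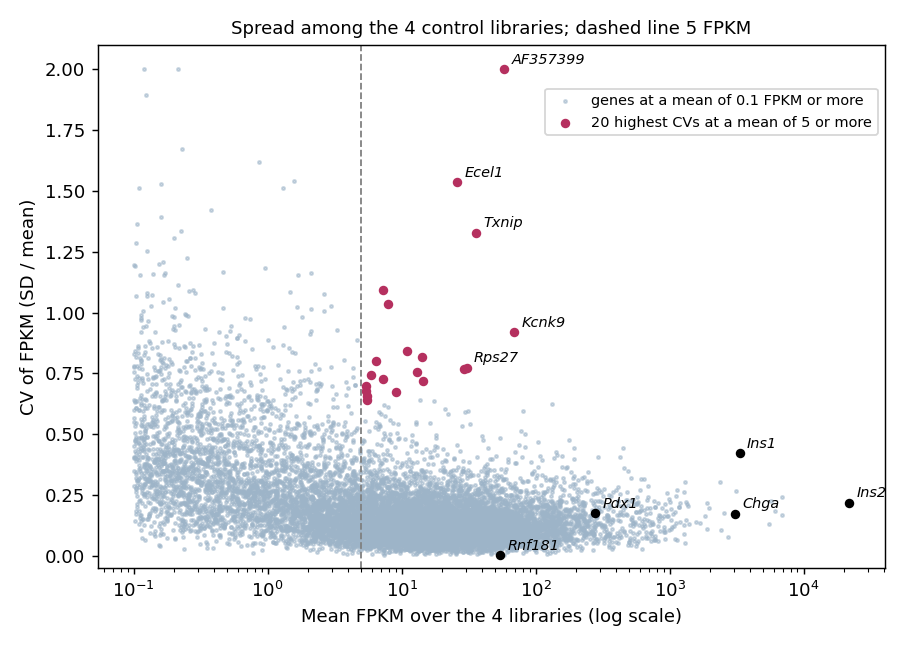
CV of FPKM over the 4 miR-LacZ libraries (y axis) against mean FPKM (log x axis) for named genes at 0.1 FPKM or more, with the 20 highest CVs at a mean of 5 FPKM or more in red and 5 other genes in black. AF357399 sits at the limit of 2, followed by Ecel1 and Txnip, and Ins1 lies above Ins2.

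At a CV of 0.5 or more there were 110 genes, and 55 after small RNA genes and predicted genes were left out by the form of their names. Of these 55, library 4 held the highest value in 37, against 25.9% of all genes at 5 FPKM or more, and library 1 the lowest in 30, against 27.3% of those genes. With each library scaled to the same sum, the counts were 38 and 22, against 34.2% and 16.1% of those genes. Library 4 was also the farthest from the mean of 4 on the log2(FPKM + 1) scale in 40 of the 55. For this last count no share over all genes is given, so it cannot be set against one. The numbering is a label and no order is read from it. Since these genes were picked for their spread, the counts describe them and test nothing. Without library 4, the count of 110 genes became 57.

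The gene with the highest CV, AF357399, is a small nucleolar RNA whose name does not show this, so it remained among the 55, and it was at 0, 234, 0 and 0 FPKM. Of 52 genes at 5 FPKM or more whose names mark small RNAs, 32 were likewise above 0 in only 1 library, and they are not described further. Among protein-coding genes at 5 FPKM or more the widest spread was that of Ecel1 (chromosome 1, 89044229 to 89051602, mm9), an endothelin-converting enzyme relative of neurons, at 4.60, 6.05, 7.45 and 85.7 FPKM. Txnip (chromosome 3, 96359690 to 96370724, mm9), which binds thioredoxin and is induced by glucose, was at 11.2, 15.1, 10.2 and 108 FPKM. For both genes libraries 1 to 3 lay close together and library 4 was 11.5 times and 7.14 times the next highest value. Without library 4 their CVs were 0.236 and 0.215.

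Several other membrane and signalling genes were also highest in library 4. Kcnk9, a background potassium channel, was at 35.7, 57.5, 21.99 and 163 FPKM, and Slc39a8, a zinc importer, at 7.16, 11.3, 6.88 and 31.1 FPKM. Mmd2, of the progestin and adipoQ receptor family, was at 3.24, 3.68, 4.60 and 20.3 FPKM and P2ry1, a receptor for ADP, at 6.67, 10.5, 7.29 and 27.5 FPKM. For Kcnk9 libraries 1 to 3 also lay well apart, with a CV of 0.467 without library 4. Lfng, a glycosyltransferase that modifies Notch, was at 2.9996, 4.70, 3.59 and 12.5 FPKM, and Rgs16, which shortens G protein signals, at 2.98, 4.01, 3.86 and 10.9 FPKM. For Parm1 and Pqlc3 libraries 1 to 3 lay close together, with 5.97, 6.22, 6.93 and 24.9 FPKM and 3.89, 4.20, 3.21 and 10.8 FPKM. Pdyn, which encodes the opioid precursor prodynorphin, was spread over all 4 libraries at 10.3, 20.6, 24.8 and 62.1 FPKM, again with library 4 on top, as was Itm2a at 3.81, 5.71, 9.14 and 17.6 FPKM.

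Other genes of the 20 stood out in another library or direction. Dio1, the deiodinase that activates thyroid hormone, was at 10.3, 9.001, 30.1 and 8.54 FPKM and Cd55, which protects cells from complement, at 6.12, 4.19, 15.01 and 3.68 FPKM, and library 3 was the highest for both. Ppy, by contrast, was lowest in library 4. Just outside the 20 stood Ppp1r14a, Crybb3, Tgoln2, Dlk1 and Ajap1, with CVs of 0.641, 0.637, 0.636, 0.626 and 0.621, against 0.641 for Pqlc3 just inside. Dlk1, an imprinted Notch relative of islets, was at 234, 149, 110.2 and 35.5 FPKM, highest in library 1 and lowest in library 4.

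Some of the widest spreads belonged to entries that overlap or have near copies. Eif3j1 was at 18.7, 6.41, 0.770 and 3.21 FPKM, and Eif3j2, which the table gives the same locus, at 21.3, 32.3, 36.3 and 38.6 FPKM. Their sum was 39.97, 38.7, 37.1 and 41.8 FPKM, with a CV of 0.0504. Tgoln2 was at 0.797, 23.1, 23.4 and 22.7 FPKM and Tgoln1, again at the same locus, at 61.05, 41.7, 41.3 and 42.4 FPKM, and their sum was 61.8, 64.8, 64.6 and 65.1 FPKM with a CV of 0.0235. In both pairs the sum was nearly level, and library 1 stood apart in how it was split between the entries. For another pair given a shared locus, Apoo-ps and Apoo, the sum varied more. It was 71.7, 76.1, 95.5 and 68.2 FPKM, with a CV of 0.157. Rps27, a ribosomal protein gene with retrocopies in the genome, was at 2.81, 28.7, 60.5 and 30.1 FPKM, with library 1 the lowest, and H2-Q2, one of a cluster of similar MHC class I genes, at 2.26, 3.47, 5.15 and 10.8 FPKM. The single values of these genes are uncertain for that reason.

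Genes of sterol synthesis and uptake shared a pattern among the libraries. This list of 24 genes and the next lists of fatty acid, stress and glucose-responsive genes were put together after the values had been seen. Insig1, which holds the sterol sensor in the endoplasmic reticulum, was at 271, 259, 151 and 92.6 FPKM in libraries 1 to 4. It was high in libraries 1 and 2, intermediate in library 3 and lowest in library 4. Of the 23 members at 5 FPKM or more, 21 were lowest in library 4, against 33.7% of all such genes. The highest value was in library 1 for 11 and in library 2 for 12, against 26.8% and 16.5% of all such genes. With each library scaled to the same sum, 17 were lowest in library 4 and 6 in library 3, against 23.5% and 44.3% of all such genes. Squalene epoxidase, Sqle, was at 173, 171, 105 and 92.3 FPKM, and Lss and Mvd, later and earlier in the pathway, at 114, 114, 62.2 and 40.9 FPKM and 49.2, 61.9, 29.6 and 18.1 FPKM. The other 2 members, Hsd17b7 among them, were lowest in library 3. The list summed to 2763, 2840.2, 1957 and 1359 FPKM in libraries 1 to 4, and its median CV was 0.325, against 0.123 over all genes. Of the 24 genes 16 had a RefSeq promoter window, and 1 of them, that of Hmgcs1, held TCACNCCAC, a form of the sterol regulatory element, on either strand, as did 1.24% of all windows.

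Fatty acid genes had a like pattern. Of 10 members, 8 were lowest in library 4, against 33.7% of all genes at 5 FPKM or more. None was highest in library 3 or in library 4, against 30.8% and 25.9% of all such genes. With each library scaled to the same sum, 5 were lowest in library 4 and 4 in library 3, against 23.5% and 44.3% of all such genes. Scd1, a stearoyl-CoA desaturase, was at 128, 103, 68.4 and 32.5 FPKM and its relative Scd2 at 620.0, 520.4, 314 and 249 FPKM. Fasn, fatty acid synthase, was at 129.6, 128, 75.8 and 70.8 FPKM. Acly, which supplies cytosolic acetyl-CoA, varied less, at 931, 1015, 759 and 914 FPKM.

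Targets of the amino acid and endoplasmic reticulum stress response were highest in library 1. Of 9 such genes at 5 FPKM or more, 7 were highest there, against 26.8% of all such genes, and 8 with each library scaled to the same sum, against 38.9%. Atf4, the factor that drives the response, was at 336, 299, 254 and 203 FPKM, and Asns, asparagine synthetase, at 304, 266, 216 and 220.5 FPKM. Ddit3 and Trib3, late targets, were at 54.02, 46.1, 50.7 and 21.5 FPKM and 53.5, 44.5, 45.7 and 23.1 FPKM, with library 4 below the other 3.

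Of the 12 glucose-responsive genes, 10 were at 5 FPKM or more and 6 of these were highest in library 4, against 25.9% of all such genes, and 6 with each library scaled to the same sum, against 34.2%. Arrdc4, the arrestin relative of Txnip, was at 4.98, 6.78, 8.06 and 12.9 FPKM and Pklr, a pyruvate kinase, at 8.08, 8.64, 7.02 and 11.04 FPKM. G6pc2, by contrast, was among the 3 members that were lowest in library 4, against 33.7% of all such genes. Summed over the 12 genes, the list came to 1199, 1181, 1141 and 1101 FPKM in libraries 1 to 4, lowest in library 4. Of 15 MHC class I and interferon genes at 5 FPKM or more, 11 were highest in library 4, against 25.9% of all such genes. Library 1 was the lowest for 10 of them, against 27.3%. With each library scaled to the same sum, the counts were 13 and 9, against 34.2% and 16.1% of all such genes. H2-K1 was at 277, 333, 334 and 355 FPKM, and Psmb8, of the immunoproteasome, at 28.7, 36.7, 38.7 and 56.9 FPKM.

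Ribosomal protein genes set library 3 apart. Of 79 cytosolic ribosomal protein genes at 5 FPKM or more, 75 were highest in library 3, against 30.8% of all such genes, and 57 were lowest in library 4, against 33.7%. With each library scaled to the same sum, the counts were 64 and 52, against 17.7% and 23.5% of all such genes. Summed over the 82 genes of the family they came to 54777, 62574, 74242 and 51407 FPKM in libraries 1 to 4. Rpl41 was at 2744, 3258, 4267 and 2319.7 FPKM and Rps21 at 1627, 1961, 2444 and 1538 FPKM, with library 3 on top of both. Transcripts of this family are known to begin with a run of C and T, through which their translation is controlled. The 4 most abundant members with such a start in RefSeq are shown from 10 bases before the annotated start to 20 bases within, 5′ to 3′ on GRCm38.p6, and capitals mark the unbroken run of C and T from the first transcribed base.
Rps21, chr2:180257369-180257398, plus strand: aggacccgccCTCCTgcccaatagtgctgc
Rpl38, chr11:114668570-114668599, plus strand: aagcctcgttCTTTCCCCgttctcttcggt
Rps18, chr17:33955646-33955675, minus strand: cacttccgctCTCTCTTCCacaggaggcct
Rplp2, chr7:141447641-141447670, plus strand: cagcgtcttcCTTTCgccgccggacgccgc
A run of at least 5 was found at 17 of 74 annotated starts of the family and at 4.44% of all 32851 starts, so most annotated starts of the family did not hold it at the first base. Rpl38 was at 1082, 1462, 1686 and 1127 FPKM, Rps18 at 886, 1188, 1491 and 935 FPKM and Rplp2 at 992, 1195, 1320.3 and 882 FPKM, each highest in library 3. Many of these genes have processed copies elsewhere in the genome, so their single values are uncertain.

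**Figure D5:**
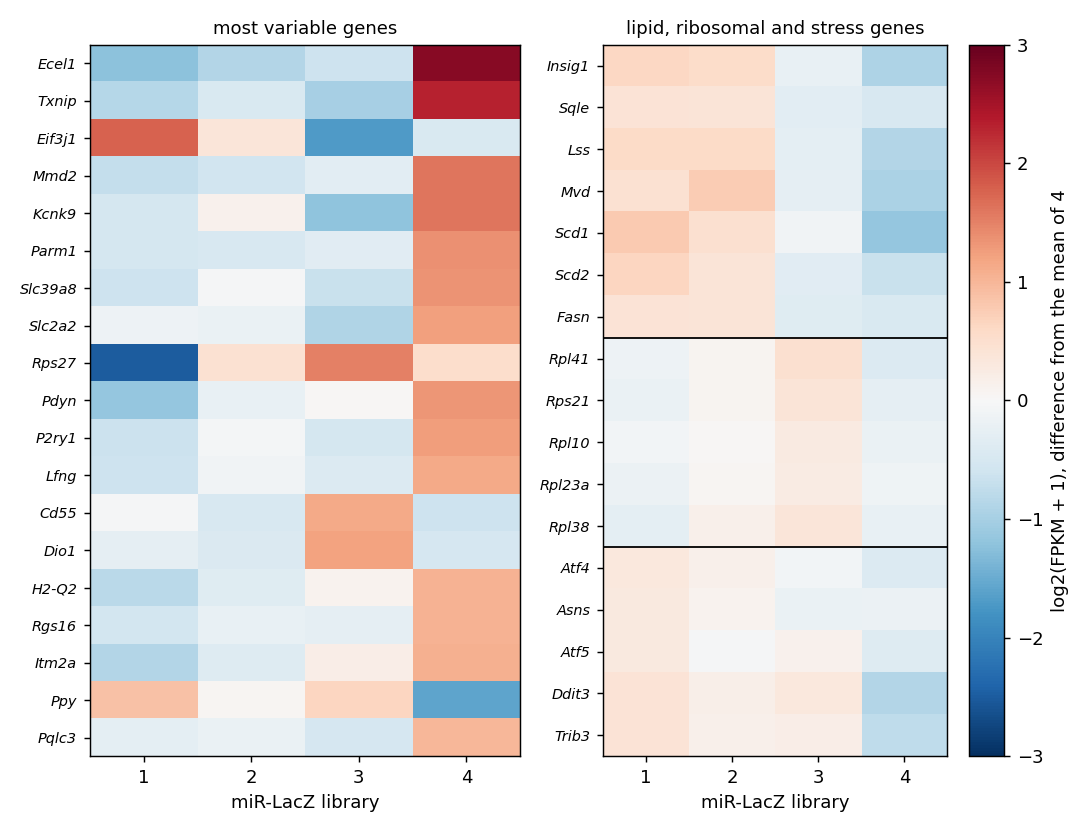
Difference of log2(FPKM + 1) from the mean of the 4 miR-LacZ libraries (color), with libraries as columns and genes as rows. On the left are the 20 most variable genes other than AF357399, mostly highest in library 4, and on the right are lipid genes (lowest in library 4), ribosomal protein genes (highest in library 3) and stress genes (mostly highest in library 1).

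Differences along the genome were small. Taken per chromosome over genes at 5 FPKM or more, the median difference of a library from the mean of 4 on the log2(FPKM + 1) scale stayed between -0.147 and 0.0997. The lowest value was that of library 4 on chromosome 10, over 435 genes. Of the 55 genes with a CV of 0.5 or more, 10 lay on chromosome 3 and 6 on chromosome 12, which is 2.47% and 1.68% of the genes at 5 FPKM or more there. On the other 18 chromosomes the share was 0 to 0.930%, and over all 9258 genes it was 0.594%. The counts are small and test nothing.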

How the data were processed

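The authors deposited 1 table of FPKM for 23309 genes, and the 4 miR-LacZ columns were read, with no column of another series (0 unmapped columns). Per the labels' protocols, libraries were made from total RNA with an Illumina TruSeq RNA kit and read as paired ends. Tools listed in the submitters' processing notes, without roles, are Cufflinks 2.1.1, TopHat2 2.0.11, cutadapt and CASAVA 1.8.2, and the build is mm9. FPKM keeps no read counts, so no interval for counting error is given, and strand use is not given in the sources used here.

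Means, SDs, CVs and counts of genes were computed from FPKM as deposited with Python 3.11.15, pandas 2.3.3 and numpy 2.4.6, and checked on simulated data. A single group has no comparison, so no test between groups was run, and Dixon's critical value served only to find libraries far from the others. The genes and lists were chosen with earlier results of these data known. Named genes are the 5 markers, the 20 highest means, the 20 highest CVs at a mean of at least 5 FPKM with the 5 just outside, the 5 lowest CVs, and leading or absent members of 27 lists and 43 families. Small RNA genes and predicted genes were left out of the rankings where the form of their names showed them, which AF357399 escaped, and some genes that the rule names are not reported here. A further 5 lists, Dab2ip, partner genes at shared loci and the example genes within lists beyond the leading ones were added after their values were seen. Alternatives changed the scaling, thresholds and level filters, left out loci under 300 bases, and left out each library in turn. Promoter letters came from RefSeq on GRCm38.p6 and were matched by symbol.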

Additional observations from a re-analysis of the deposited data

Results flagged for a closer look

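In 15 of the 180 named genes at a mean of 1 FPKM or more, 1 library lay far from the other 3, by a gap to the nearest value that passed Dixon's critical share of the whole range for 4 samples. Chance flags about 1 gene in 20, but the named genes include those picked for a high CV, so the number found is not read against that rate, and a gene with little spread can be flagged on a small gap. In 8 of the 15 the odd value was the highest and came from library 4, and in 2 it was the lowest and came from library 1.

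Library 4 was high for Ecel1 at 85.7 FPKM, Txnip at 108 FPKM, Mmd2 at 20.3 FPKM, Parm1 at 24.9 FPKM, Pqlc3 at 10.8 FPKM and Rgs16 at 10.9 FPKM. It was also high for Serpina1b at 114 FPKM and Slc30a8 at 285 FPKM, and low for Gip at 26.7 FPKM. Library 1 was low for Chga at 2288 FPKM and Tgoln2 at 0.797 FPKM, and high for Tgoln1, which shares the locus of Tgoln2, at 61.0 FPKM. Library 2 was high for Pax6 at 188 FPKM and for AF357399 at 234 FPKM. Library 3 was high for Dio1 at 30.1 FPKM. What set these libraries apart was not tested.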

How the results depend on the processing

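No paired analysis was possible because only 1 group was described and no test between groups was run. Counts of genes by level, and the share of summed FPKM held by the 20 most abundant genes and by Ins2, stayed within 1.5 times or 1 SD under each scaling, threshold and left-out library tried for them. Of 42 genes ranked by level or CV or used as markers, none had its mean moved by over 1.5 times by either scaling, but leaving out a library did so for 15. Without library 4 it was so for 11, Ecel1 falling to 6.03 FPKM, against 25.9 FPKM over all 4, and Txnip to 12.2, against 36.2 FPKM. Without library 3 it was so for Cd55 and Dio1, without library 1 for Eif3j1 and without library 2 for AF357399. What changed was the set of variable genes. The count of genes with a CV of at least 0.5 was 110, and it was 273 with a level filter of 1 FPKM, 73 with a filter of 10 FPKM, 4147 with no filter, where the median CV was 0.188, and 55 with small RNA and predicted genes left out, an alternative added after the data were seen. Leaving out each library gave counts of 57 to 142, the lowest without library 4. Of the 20 most variable genes, 6 were shared with a filter of 1 FPKM, 10 with a filter of 10 FPKM, 13 when ranked by the SD of log2(FPKM + 1), 12 with a pseudocount of 0.1, and 1 when small RNA and predicted genes were kept. Leaving out each library shared 6 to 16 of them, again the fewest without library 4. Without library 4 the CVs of 15 of these 20 genes moved by more than 1.5 times. The CVs of Dio1 and Cd55 were 0.0975 and 0.276 without library 3, and that of Rps27 was 0.452 without library 1. Without library 2, AF357399 has no CV because it is at 0 in the other 3. The causes were not tested. With 4 libraries and no read counts, the CVs of genes at a few FPKM mix counting error with differences between libraries.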

Other observations

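Beyond the lists above, single members stood out in several gene families. Plxnb2, a semaphorin receptor, averaged 67.97 FPKM while the next highest plexin, Plxna3, averaged 5.52 FPKM. Jag2 at 34.7 FPKM was the leading Notch ligand, and Jag1 averaged 0.926 FPKM. Sp8, a zinc finger factor known from limb and brain, averaged 48.1 FPKM and was the highest of 26 Klf and Sp genes. Of 12 Toll-like receptors none reached 1 FPKM, against 50.4% of all genes, Tlr4 being the highest at 0.877 FPKM. Of 19 chemokine receptors only Ccr10 reached 1 FPKM, at 2.53 FPKM. Defb41, a defensin of the epididymis, averaged 6.95 FPKM, while 50 of 54 defensins were under 0.1 FPKM, against 38.8% of all genes. These genes are the leading members of families defined by name, and no explanation was tested.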
